A study of Mus musculus with 15 samples.

Results

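The interleukin-1 family and inflammasome genes described here are *Il1a*, *Il1b*, *Il1rn*, *Il18*, *Il18bp*, *Nlrp3*, *Pycard*, *Casp1*, *Casp4* and *Gsdmd*. They are 10 of the 54390 genes in the tables and were chosen by gene symbol, each with 1 row. RNA-seq read counts were available for 15 libraries of BV2, a mouse microglial line. WT cells and Trem2-/- cells, which were made to lack the lipid receptor Trem2, were kept overnight in media alone (non-foamy) or with 20 μg/ml soluble cholesterol (foamy). The non-foamy cells gave 4 WT and 3 Trem2-/- libraries, and the foamy cells gave 4 of either genotype. The Trem2-/- cells came from Cas9-expressing BV2 cells after transfection of a guide RNA and isolation of single clones. Whether the WT cells carried Cas9 is not given in the sources used here, so loss of Trem2, a difference between clones and Cas9 cannot be told apart. The soluble cholesterol was prepared with a cyclodextrin carrier that media alone did not hold, so cholesterol and carrier cannot be told apart either. No label says that the libraries of a group came from separate cultures, so p-values measure only the spread between these libraries, which may be technical.

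Interleukin-1α and interleukin-1β, the products of *Il1a* and *Il1b*, signal through the same receptor, and the product of *Il1rn* blocks that receptor. Interleukin-1β and interleukin-18 are made as inactive precursors and are cut by caspase-1 on an inflammasome, in which the sensor NLRP3 recruits caspase-1 through the adaptor ASC, the product of *Pycard*. Caspase-1 and caspase-11, the product of mouse *Casp4*, also cut gasdermin D, whose fragment forms pores in the plasma membrane. In microglia and macrophages *Il1b* and *Nlrp3* are commonly induced by an inflammatory signal, and cholesterol crystals are a well-known trigger of the NLRP3 inflammasome in macrophages.

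Libraries held between 23538963 and 41683825 counted reads. Levels are given as CPM, the counts scaled to a common total, after TMM scaling, and comparisons between genes use CPM per kilobase of exon. A gene was called when edgeR's quasi-likelihood test gave a Benjamini-Hochberg adjusted p under 0.05 over 14237 tested genes. Whether groups overlap is only a description of the values. The share of all tested genes whose groups do not overlap is not given here. *Trem2* itself was between 327 and 415 CPM in the WT libraries and between 214 and 232 CPM in the Trem2-/- libraries, with no overlap between genotypes. The authors checked the knockout by flow cytometry of Trem2 protein, which these RNA levels do not measure. All 10 microglia or macrophage markers examined were counted in every group, and their sum was higher in Trem2-/- libraries (5766 to 6163 CPM) than in WT libraries (3846 to 4741 CPM). *Tyrobp*, *Cd68* and *Fcgr3* made up most of that sum. The marker *Cx3cr1* was nearly absent, at 4 to 88 reads per library, and ran the other way, at a mean of 1.54 CPM in WT against 0.300 in Trem2-/- cells without cholesterol and 1.02 against 0.507 with it. Fibroblast markers had 0 reads in all libraries, and neutrophil, astrocyte and neuron markers each summed to at most 0.616 CPM. The summed T cell markers, nearly all *Cd4*, reached 0.484 to 1.26 CPM in WT and 1.15 to 2.92 CPM in Trem2-/- libraries. Whether these marker levels have a part in the results below was not tested. In bulk RNA, fewer cells with a transcript and less transcript per cell cannot be told apart. In a principal component analysis, WT non-foamy library 3 stood apart from its group, as did Trem2-/- foamy library 4. These are the 2 libraries that stood apart in the fits below. WT foamy library 1 also lay away from its group on the second component (25.9 against −4.80 to 5.01), and those fits keep it. WT non-foamy library 3 was the highest of its 4 libraries for 7 of the 9 tested members and the lowest for *Nlrp3*. Values of *Il1a* and *Il18* and the counts of members called between genotypes are also given without the 2 libraries that stood apart.

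The gene starts are shown for 2 pairs of neighbours and for *Nlrp3*, and no test links their letters to the calls. *Il1a* and *Il1b*, which lie 54597 bases apart on the minus strand of chromosome 2, are neighbours of which only *Il1a* was called in any comparison, whereas *Casp1* and *Casp4*, 1562 bases apart on the plus strand of chromosome 9, were called in the same direction. The 250 bases before a RefSeq start (GRCm38.p6) are shown for these neighbours and for *Nlrp3*, the most upstream start where a gene has several, 5′ to 3′ on the strand of the gene. Capitals mark matches to the TATA letters TATAAA, to the AP-1 letters TGANTCA or to the NF-κB consensus. The windows are chr2:129309973-129310222 (minus strand) for *Il1a*, chr2:129371140-129371389 (minus strand) for *Il1b*, chr11:59541319-59541568 (plus strand) for *Nlrp3*, chr9:5298267-5298516 (plus strand) for *Casp1* and chr9:5308599-5308848 (plus strand) for *Casp4*.
Il1a: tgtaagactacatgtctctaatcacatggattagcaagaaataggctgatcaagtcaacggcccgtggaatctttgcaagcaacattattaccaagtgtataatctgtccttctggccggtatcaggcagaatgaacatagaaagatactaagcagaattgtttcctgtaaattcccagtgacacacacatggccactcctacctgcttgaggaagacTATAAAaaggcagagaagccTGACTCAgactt
Il1b: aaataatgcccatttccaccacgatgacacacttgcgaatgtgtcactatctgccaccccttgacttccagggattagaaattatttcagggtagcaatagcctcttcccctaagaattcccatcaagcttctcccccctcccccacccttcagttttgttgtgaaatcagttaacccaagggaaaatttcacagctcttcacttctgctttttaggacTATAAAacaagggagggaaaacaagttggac
Nlrp3: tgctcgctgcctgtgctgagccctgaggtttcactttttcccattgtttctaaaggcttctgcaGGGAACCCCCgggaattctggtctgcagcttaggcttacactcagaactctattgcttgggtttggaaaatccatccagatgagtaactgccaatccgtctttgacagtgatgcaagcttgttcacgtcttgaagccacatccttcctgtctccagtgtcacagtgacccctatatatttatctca
Casp1: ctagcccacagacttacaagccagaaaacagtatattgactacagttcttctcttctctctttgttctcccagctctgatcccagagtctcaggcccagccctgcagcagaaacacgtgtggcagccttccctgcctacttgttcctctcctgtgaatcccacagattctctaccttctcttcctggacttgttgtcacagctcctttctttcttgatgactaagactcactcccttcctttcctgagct
Casp4: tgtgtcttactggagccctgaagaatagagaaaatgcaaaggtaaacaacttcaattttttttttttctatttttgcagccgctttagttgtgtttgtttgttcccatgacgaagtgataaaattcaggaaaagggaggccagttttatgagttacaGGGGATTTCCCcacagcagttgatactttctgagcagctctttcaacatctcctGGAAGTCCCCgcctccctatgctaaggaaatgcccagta

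Both interleukin-1 windows held a TATA match, 32 to 27 bases before the start in *Il1a* and 31 to 26 bases before it in *Il1b*. *Il1a* also had an AP-1 match (TGACTCA) 12 to 6 bases before the start, and the *Il1b* window had none. The most upstream window of *Il1rn*, not shown, also held an AP-1 match (TGAGTCA), 141 to 135 bases before the start. *Il1rn* was called in no comparison. *Nlrp3* had 1 NF-κB match, 186 to 177 bases before the start, that reads on both strands. A further RefSeq window of *Nlrp3*, chr11:59542436-59542685, held no match. *Casp4* had overlapping NF-κB matches 93 to 83 bases before the start and another 39 to 30 bases before it, and *Casp1* had no match to any motif searched. Of all 32851 RefSeq windows of this length, 12.4% held the TATA letters, 6.75% the AP-1 letters, 7.25% the NF-κB consensus and 7.69% the PU.1 letters AGGAAGT, counting both strands. A match is a description of the letters, and its absence in 250 bases says nothing about binding elsewhere. Windows were found for 9 of the 10 genes. In GENCODE M21 the genes themselves lie at chr2:129299610-129309972 (*Il1a*), chr2:129364570-129371139 (*Il1b*), chr2:24336853-24351494 (*Il1rn*), chr9:50554827-50581840 (*Il18*), chr7:102014885-102018690 (*Il18bp*), chr11:59541568-59566956 (*Nlrp3*), chr9:5298517-5307265 (*Casp1*), chr9:5308828-5336783 (*Casp4*) and chr15:75862327-75867408 (*Gsdmd*) of GRCm38, and reads were counted over their exons.

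*Il1a*, which encodes a cytokine that is active without cleavage and acts as an alarm signal when cells die, was the tested member whose levels differed most between groups as a fold change. In WT non-foamy cells it was at 0.596, 0.741, 1.19 and 1.09 CPM. In WT foamy cells it was at 1.88, 1.64, 1.99 and 1.86 CPM, so all libraries with cholesterol lay above all libraries without it. The 3 Trem2-/- non-foamy libraries had 9.26, 10.1 and 9.00 CPM, and the 4 Trem2-/- foamy libraries had 7.09, 6.81, 7.56 and 5.72 CPM. Every Trem2-/- library was above every WT library, and within Trem2-/- cells the order of the conditions was the opposite of that in WT. These levels rest on 23 to 49 reads per library in WT non-foamy cells, 65 to 78 in WT foamy cells, 272 to 325 in Trem2-/- non-foamy cells and 154 to 255 in Trem2-/- foamy cells.

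**Figure D1:**
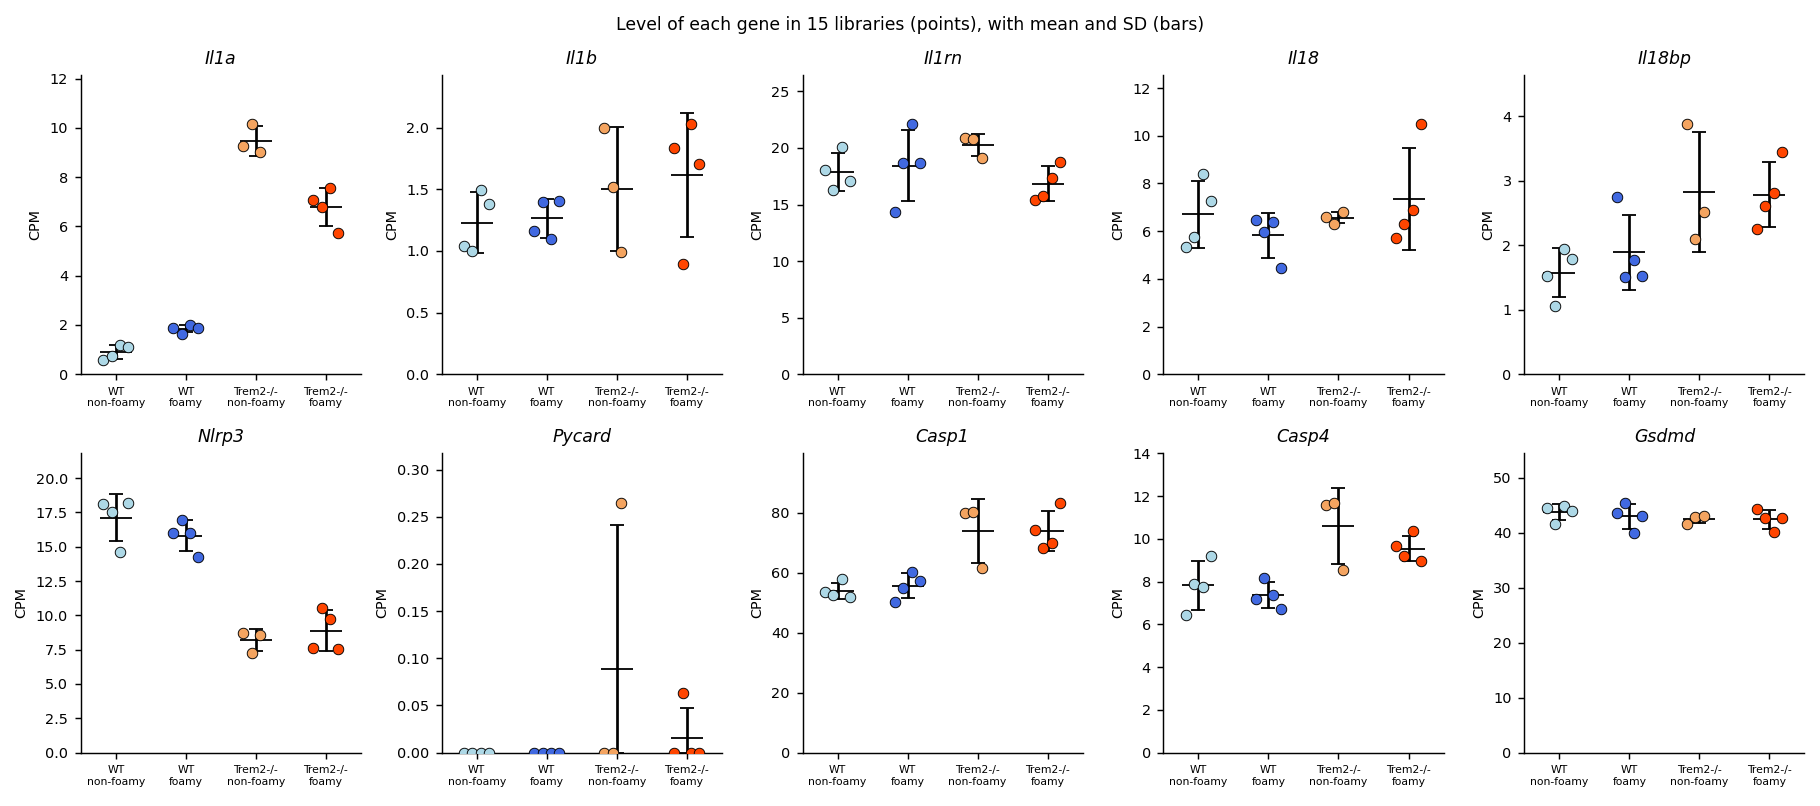
Level of each of the 10 genes in CPM after TMM scaling (vertical axes, linear, each from 0) in the 15 libraries, by group. Points are libraries and bars are the mean ± SD, with the lower bar of *Pycard* cut at 0. *Il1a* is low in WT, highest in Trem2-/- non-foamy cells and intermediate in Trem2-/- foamy cells, *Nlrp3* is lower in both Trem2-/- groups, and *Gsdmd* lies between 40.0 and 45.5 CPM in all libraries.

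In WT cells *Il1a* rose 2.06-fold with cholesterol, which is 1.04 ± 0.19 on the log2 scale (s.e., adjusted p = 0.00397, edgeR). It was 1 of 9 tested members called in this comparison, against 2.8% of all tested genes. The 95% interval of the log2 fold change was 0.64 to 1.44. Without the 2 libraries that stood apart the log2 fold change was 1.16 (adjusted p = 0.000966). Fitted on the WT libraries alone, it was 1.04 with an adjusted p of 0.0781, and the call was lost.

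In Trem2-/- cells no member was called for the response to cholesterol, by edgeR or by DESeq2, where 0.14% of all tested genes were called by edgeR. At an unadjusted p under 0.05 there were 2 members, *Il1a* and *Il1rn*, against 6.45% of all tested genes. The log2 fold change of *Il1a* was −0.48 ± 0.16 (s.e., adjusted p = 0.596, edgeR), with a 95% interval of −0.80 to −0.15. The groups did not overlap. The difference of the responses between genotypes was called for *Il1a*, at −1.52 ± 0.25 on the log2 scale (s.e., adjusted p = 0.00113, edgeR). It was the only member of the 9 called for a difference of the responses, against 3.64% of all tested genes.

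Between genotypes, *Il1a* was 10.6-fold higher in Trem2-/- than in WT non-foamy cells (log2 fold change 3.40 ± 0.19, adjusted p = 3.16e-12, edgeR). In foamy cells it was 3.69-fold higher (log2 fold change 1.89 ± 0.16, adjusted p = 1.23e-08, edgeR). The corresponding values without the 2 libraries that stood apart were 3.52 and 1.96. On the opposite strand, *Gm14023* shares 11.2% of the exonic bases of *Il1a*. It had 4 to 19 reads per library in WT and 6 to 20 in Trem2-/- cells, which is fewer than the reads of *Il1a* in every Trem2-/- library. In WT non-foamy libraries *Gm14023* had 9 to 19 reads beside 23 to 49 for *Il1a*, and its part in these counts was not tested.

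*Il1b*, which encodes the cytokine precursor that caspase-1 cuts, was low in all groups, at 28 to 70 reads per library. It was at 1.04, 0.998, 1.50 and 1.38 CPM in WT non-foamy cells and at 1.16, 1.39, 1.10 and 1.40 CPM in WT foamy cells. The Trem2-/- libraries had 1.99, 1.52 and 0.993 CPM without cholesterol and 1.83, 0.890, 2.03 and 1.71 CPM with it. All 4 groups overlapped. The largest of its 4 log2 differences between groups was 0.35 ± 0.28 (s.e., adjusted p = 0.363, edgeR), between genotypes in foamy cells. Its 95% interval ran from −0.22 to 0.92, and a difference of 1.5-fold lies within it. The antisense transcript *Il1bos* shares 1.31% of the exonic bases of *Il1b* and had 0 to 10 reads per library.

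The balance of *Il1a* and *Il1b* reads differed between the groups. In WT non-foamy libraries there were 0.575 to 0.794 *Il1a* reads per *Il1b* read, and in WT foamy libraries 1.18 to 1.81. In Trem2-/- non-foamy libraries this ratio was 4.64, 6.69 and 9.07, and in Trem2-/- foamy libraries it was 3.86, 7.64, 3.73 and 3.35. With nearly equal exonic lengths (1974 bases in *Il1a* and 1907 in *Il1b*), *Il1b* was the more counted of the pair in all 4 WT non-foamy libraries and *Il1a* in the other 11 libraries. No test was made of the ratios, which share the reads tested above.

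*Il1rn*, which encodes the receptor antagonist, overlapped between WT and Trem2-/- cells in both conditions. Its level was 16.3 to 20.1 CPM in WT non-foamy, 14.3 to 22.1 in WT foamy, 19.1 to 20.9 in Trem2-/- non-foamy and 15.4 to 18.8 in Trem2-/- foamy libraries. The 2 Trem2-/- groups did not overlap, but the log2 fold change of −0.27 ± 0.12 with cholesterol was not called (s.e., adjusted p = 0.732, edgeR). The corresponding value in WT cells was 0.046 ± 0.11, and the difference of the responses, −0.32 ± 0.16, was not called (adjusted p = 0.314). Differences between genotypes were 0.18 ± 0.12 in non-foamy and −0.13 ± 0.11 in foamy cells (adjusted p = 0.218 and 0.384). There were 14.9 ± 2.38 *Il1rn* reads per *Il1b* read (SD, n = 4) in WT non-foamy cells, 14.8 ± 3.54 in WT foamy cells, 14.5 ± 4.46 in Trem2-/- non-foamy cells (n = 3) and 11.4 ± 4.35 in Trem2-/- foamy cells.

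*Il18*, the other caspase-1 substrate among the cytokines, was at 5.34 to 8.41 CPM in WT non-foamy, 4.46 to 6.45 in WT foamy, 6.31 to 6.79 in Trem2-/- non-foamy and 5.70 to 10.5 CPM in Trem2-/- foamy libraries. The highest values in WT non-foamy and Trem2-/- foamy cells were those of the 2 libraries that stood apart. No comparison called it. The largest log2 difference between groups, 0.33 ± 0.17 between genotypes in foamy cells, had an adjusted p of 0.167 by edgeR, and it was 0.11 (adjusted p = 0.630) without the 2 libraries that stood apart. Its response in Trem2-/- cells, 0.15 ± 0.19, was −0.065 without Trem2-/- foamy library 4.

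*Il18bp* encodes a secreted protein that binds interleukin-18 and keeps it from its receptor. It was at 1.53, 1.06, 1.94 and 1.78 CPM in WT non-foamy cells and at 3.88, 2.09 and 2.52 CPM in Trem2-/- non-foamy cells. The Trem2-/- values all lay above the WT values, with the lowest at 2.09 and the highest WT value at 1.94 CPM. The log2 fold change was 0.85 ± 0.27 (s.e., adjusted p = 0.0125, edgeR). Without Trem2-/- non-foamy library 1, the highest, it was 0.55 (adjusted p = 0.150) and the call was lost. *Numa1*, on the opposite strand, shares 2.64% of the exonic bases of *Il18bp* and had 962 to 3677 reads per library, against 33 to 136 for *Il18bp*, and its part in these counts was not tested.

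In foamy cells *Il18bp* was at 2.75, 1.52, 1.77 and 1.52 CPM in WT and at 2.25, 2.61, 2.82 and 3.45 CPM in Trem2-/- libraries. These groups overlapped through WT foamy library 1, and the log2 difference of 0.55 ± 0.24 was not called (adjusted p = 0.0968, edgeR). Without that library it was 0.79 (adjusted p = 0.0207) and was called. *Numa1* was also the highest of its group in WT foamy library 1, at 88.8 CPM against 47.8 to 61.3 CPM in the others. In Trem2-/- non-foamy library 1 *Numa1* was at 52.0 CPM, between the 47.9 and 61.5 CPM of the rest of its group. Its part in either value was not tested. The responses of *Il18bp* to cholesterol were 0.27 ± 0.25 in WT and −0.0375 ± 0.26 in Trem2-/- cells and were not called. Without WT foamy library 1 the WT value was 0.023. The number of *Il18bp* reads per *Il18* read was 0.237 ± 0.0421 in WT non-foamy, 0.325 ± 0.0772 in WT foamy and 0.387 ± 0.0392 in Trem2-/- foamy cells (SD, n = 4 each), and 0.429 ± 0.137 in Trem2-/- non-foamy cells (n = 3).

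*Nlrp3*, the inflammasome sensor, was the only member that was lower in Trem2-/- cells by a called difference. It was at 18.2, 17.6, 14.6 and 18.2 CPM in WT non-foamy cells and at 16.0, 17.0, 16.0 and 14.2 CPM in WT foamy cells. In Trem2-/- cells it was at 8.75, 7.25 and 8.54 CPM without cholesterol and at 7.64, 10.5, 9.75 and 7.57 CPM with it. The highest Trem2-/- library, at 10.5 CPM, lay below the lowest WT library, at 14.2 CPM. In non-foamy cells the level was 2.10-fold lower in Trem2-/- than in WT (log2 fold change −1.07 ± 0.12, adjusted p = 3.14e-07, edgeR). In foamy cells it was 1.78-fold lower (log2 fold change −0.83 ± 0.11, adjusted p = 6.51e-06, edgeR).

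Cholesterol gave no called change of *Nlrp3* in either genotype. The log2 fold changes were −0.12 ± 0.11 in WT (adjusted p = 0.642, edgeR) and 0.12 ± 0.13 in Trem2-/- cells (adjusted p = 0.934). Their 95% intervals, −0.34 to 0.10 and −0.15 to 0.38, do not hold a doubling or a halving. The difference of the responses was 0.23 ± 0.17 (adjusted p = 0.511).

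*Pycard*, which encodes the adaptor ASC, was counted in only 2 of the 15 libraries. Trem2-/- non-foamy library 3 had 8 reads (0.265 CPM) and Trem2-/- foamy library 2 had 2 reads (0.0636 CPM). All 8 WT libraries and the other 5 Trem2-/- libraries had 0 reads, which allows up to 3 reads, or 0.0669 to 0.132 CPM depending on the library. Low counts in these tables were mostly even, and if both reads of a pair were counted the limit is 6 reads, or 0.134 to 0.264 CPM. These limits cover counting error only. *Pycard* was the only member that did not pass the filter on low counts and was not tested. The gene lies at chr7:127989708-127993867 on the minus strand, and 12.8% of its exonic bases are shared with the opposite-strand *Gm45205*, which had 0 to 4 reads per library.

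*Casp1*, which encodes the protease at the end of the inflammasome, had the highest level per length of all members. It was at 53.3, 52.5, 57.7 and 51.7 CPM in WT non-foamy cells and at 50.1, 54.9, 60.1 and 57.3 CPM in WT foamy cells. In Trem2-/- cells it was at 79.9, 80.3 and 61.5 CPM without cholesterol and at 74.0, 68.2, 69.8 and 83.2 CPM with it. Within each condition every Trem2-/- library was above every WT library. The difference was 1.38-fold in non-foamy cells (log2 fold change 0.46 ± 0.089, adjusted p = 0.000195, edgeR) and 1.33-fold in foamy cells (log2 fold change 0.41 ± 0.083, adjusted p = 0.000599, edgeR). The responses to cholesterol were 0.048 ± 0.083 in WT and −0.0029 ± 0.089 in Trem2-/- cells, and neither was called.

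*Casp4*, whose product senses intracellular lipopolysaccharide, was at 6.43, 7.89, 7.75 and 9.21 CPM in WT non-foamy and at 11.6, 11.7 and 8.54 CPM in Trem2-/- non-foamy cells. Trem2-/- non-foamy library 3 lay within the WT range and was also the lowest of its group for *Casp1*. The log2 fold change was 0.44 ± 0.13 (s.e., adjusted p = 0.00889, edgeR). In foamy cells the WT libraries had 7.20, 8.17, 7.37 and 6.73 CPM and the Trem2-/- libraries 9.67, 9.19, 10.3 and 8.99 CPM, without overlap. That log2 fold change was 0.37 ± 0.12 (adjusted p = 0.0225, edgeR). Scaling by total counts alone ended both calls (0.29, adjusted p = 0.0932, and 0.25, adjusted p = 0.150). The first was also lost without Trem2-/- non-foamy library 1 or 2 (adjusted p = 0.0604 and 0.0574) and the second without WT foamy library 4 or Trem2-/- foamy library 3 (adjusted p = 0.0699 and 0.0673).

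*Gsdmd*, which encodes the pore-forming gasdermin D, had the narrowest range relative to its level of the 9 tested members. All 15 libraries lay between 40.0 and 45.5 CPM, and the group means were 43.8 ± 1.49 in WT non-foamy, 43.0 ± 2.28 in WT foamy, 42.4 ± 1.77 in Trem2-/- foamy (SD, n = 4 each) and 42.5 ± 0.786 in Trem2-/- non-foamy cells (n = 3). Its log2 differences between genotypes were −0.042 ± 0.066 in non-foamy and −0.020 ± 0.060 in foamy cells (adjusted p = 0.635 and 0.840, edgeR). The 95% intervals, −0.18 to 0.094 and −0.15 to 0.11, bound either difference to less than the differences measured for *Casp1*. Under scaling by total counts alone the first was −0.18 and was called (adjusted p = 0.0499).

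**Figure D2:**
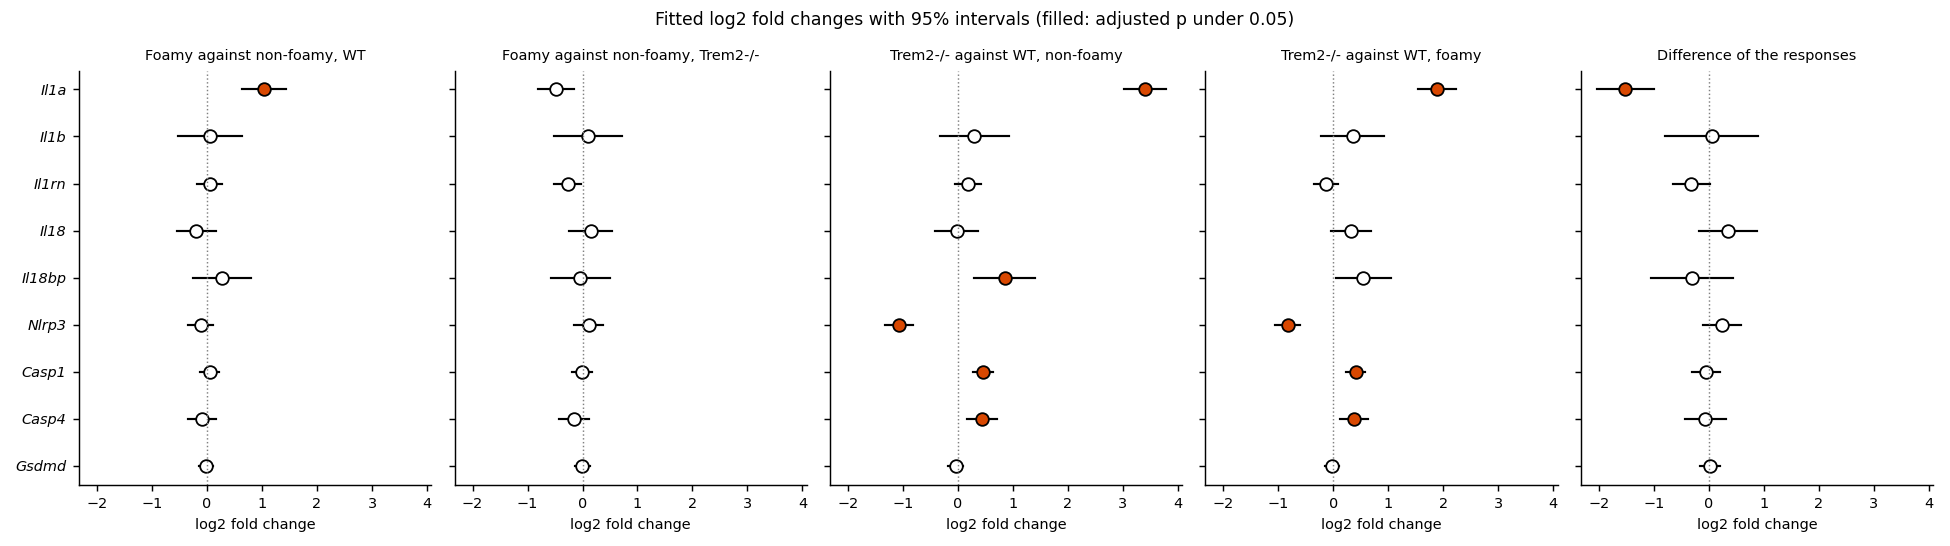
Log2 fold change of the 9 tested members (vertical axis) in each of the 5 comparisons (horizontal axis, log2 scale), with bars for the 95% interval of the edgeR fit and filled symbols for called differences. *Il1a* is called in 4 comparisons, *Nlrp3*, *Casp1* and *Casp4* in both genotype comparisons and *Il18bp* in that of non-foamy cells.

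In all, 5 of 9 tested members were called between genotypes in non-foamy cells, 4 higher in Trem2-/- and 1 lower, where 43.6% of all tested genes were called, 21% higher and 22.6% lower. In foamy cells 4 of 9 were called, 3 higher and 1 lower, against 30.2% of all tested genes, 14.3% higher and 15.9% lower. The median log2 fold change over the members was 0.30 in non-foamy and 0.35 in foamy cells, beside 0.017 and 0.00033 over all tested genes. Without Trem2-/- non-foamy library 1 the count of non-foamy calls was 3. Without the 2 libraries that stood apart, 5 and 4 members were called. The 2 genotype comparisons use separate libraries of the same WT and Trem2-/- cells, fitted together. The 4 members called in foamy cells had the same direction in non-foamy cells, and the share of all tested genes that did so is not given here.

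Per kilobase of exon, the order of the levels in WT non-foamy cells was *Casp1* (35.9 ± 1.79 CPM per kilobase), *Gsdmd* (18.4 ± 0.628), *Il18* (6.50 ± 1.37), *Nlrp3* (4.22 ± 0.420), *Il1rn* (3.23 ± 0.296), *Casp4* (2.11 ± 0.307), *Il1b* (0.644 ± 0.130), *Il18bp* (0.522 ± 0.126) and *Il1a* (0.458 ± 0.143). The last 3 overlapped between libraries, as did *Nlrp3* and *Il1rn*, and the other neighbours did not. In Trem2-/- non-foamy cells *Il1a* was the fourth, at 4.80 ± 0.301 CPM per kilobase, between *Il18* (6.37 ± 0.231) and *Il1rn* (3.66 ± 0.174) and overlapping neither. *Nlrp3*, at 2.02 ± 0.200, had moved below *Casp4* (2.86 ± 0.483). In Trem2-/- foamy cells *Il1a* (3.44 ± 0.396) and *Il1rn* (3.04 ± 0.280) overlapped, as did *Casp4* (2.57 ± 0.163) and *Nlrp3* (2.19 ± 0.368). In WT foamy cells *Il1a*, at 0.933 ± 0.0744, was above *Il1b* (0.663 ± 0.0821) without overlap. As a share of the summed level per length of the 10 genes, *Il1a* was 0.636% in WT non-foamy, 1.29% in WT foamy, 5.41% in Trem2-/- non-foamy and 3.94% in Trem2-/- foamy cells.

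**Figure D3:**
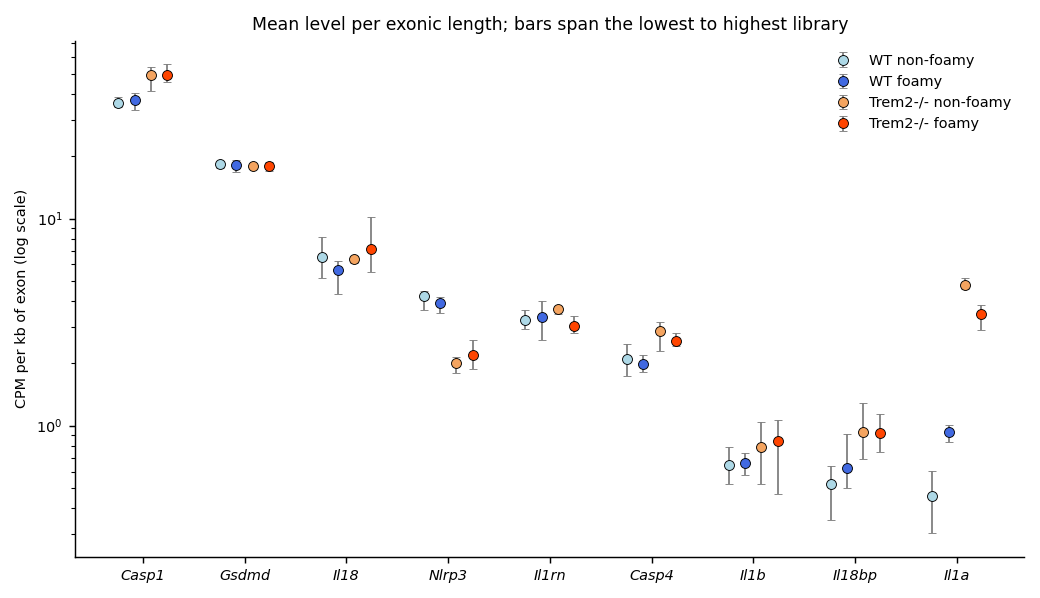
Mean level of the 9 tested members in CPM per kilobase of exon (vertical axis, log scale) in the 4 groups, as points, with bars from the lowest to the highest library. *Casp1* and *Gsdmd* lie at the top in every group, *Il1a* moves from the lowest tested level in WT non-foamy cells (0.458) to the fourth highest in Trem2-/- non-foamy cells (4.80), and *Nlrp3* moves down (4.22 to 2.02).

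Other genes of the pathway were examined from lists of ligands, receptors, signalling proteins, sensors, caspases, pore proteins, regulators of NLRP3 and inhibitors, of which 58 were in the tables and 40 were tested. Cholesterol in WT cells gave 4 called genes, 2 higher and 2 lower, and cholesterol in Trem2-/- cells gave 0 by edgeR and by DESeq2 (by edgeR, 5 at an unadjusted p under 0.05). Between genotypes 23 were called in non-foamy cells, 15 higher and 8 lower, and 14 in foamy cells, 8 higher and 6 lower. A difference of the responses was called for 6, above 0 (Trem2-/- minus WT) for *Il1r2*, *Il18rap* and *Serpinb1a* and below 0 for *Irak2*, *Naip5* and *Tnfaip3*. It was called for only 1 to 3 pathway genes without any one of WT non-foamy library 1, WT foamy library 1 or 2, Trem2-/- non-foamy library 1 or 2 and Trem2-/- foamy library 2. These shares are 10% and 0% for the responses, 57.5% and 35% between genotypes and 15% for the difference of the responses, beside the 2.8%, 0.14%, 43.6%, 30.2% and 3.64% of all tested genes.

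None of the 6 other ligands in the tables was tested, and *Il33*, an alarm cytokine like *Il1a*, had 0 reads in all libraries. Of 8 receptor genes 5 were tested, and the shared receptor subunit *Il1rap* had 0 reads in all libraries. Values given beside these genes are log2 fold changes, and a gene is written as higher or lower only where it was called. The decoy receptor *Il1r2*, which binds interleukin-1 without signalling, had mean levels of 24.0 CPM in WT non-foamy, 15.1 in WT foamy, 10.2 in Trem2-/- non-foamy and 12.1 in Trem2-/- foamy cells. It fell with cholesterol in WT cells (log2 fold change −0.67, adjusted p = 0.000379, edgeR) and was lower in Trem2-/- cells (−1.23 in non-foamy and −0.32 in foamy cells, adjusted p = 8.83e-09 and 0.0199). Its difference of the responses, 0.91 (adjusted p = 0.00113), had the opposite sign to that of *Il1a*. *Il1rl1*, the receptor of interleukin-33, was lower in Trem2-/- cells in both conditions (−0.81 and −0.48). *Il18rap*, a subunit of the interleukin-18 receptor, was lower in non-foamy cells (−1.26). The signalling receptor *Il1r1* was higher in Trem2-/- non-foamy cells (1.38, adjusted p = 0.0271) at a mean of 0.902 CPM.

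All 11 signalling genes were tested. In non-foamy cells 5 were higher in Trem2-/-, among them the kinase genes *Irak2* (0.77) and *Irak4* (0.46) and the ubiquitin ligase gene *Traf6* (0.40), whereas the adaptor *Myd88* was lower (−0.57). In foamy cells *Traf6* (0.45) and *Irak2* (0.33) were higher and *Myd88* (−0.33) lower. *Irak2* also rose with cholesterol in WT cells (0.29, adjusted p = 0.0492, edgeR), with overlap between the groups.

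Of 12 other sensors 9 were tested. Higher in Trem2-/- cells in both conditions were *Naip1* (1.71 in non-foamy and 1.66 in foamy cells), *Naip5* (1.06 and 0.46) and *Naip2* (0.61 and 0.47), whose products detect bacterial flagellin or secretion proteins. *Naip6* was higher in non-foamy cells (0.48), and *Nlrp1a*, a sensor of the NLRP1 group, was the only sensor of this list called lower (−0.39 in non-foamy cells, adjusted p = 0.00895, edgeR). *Naip1* rests on few reads, 12 to 28 per library in WT and 36 to 80 in Trem2-/- cells. The *Naip* genes are related to each other, and how reads were split between them was not examined. *Naip5* also rose with cholesterol in WT cells (0.49, adjusted p = 0.00922, edgeR). *Aim2*, the sensor of cytosolic DNA, was called in no comparison, with group means between 66.0 and 70.6 CPM.

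Of the other caspases of the pathway, *Casp8*, which acts in both cell death and inflammasome signalling, was called in no comparison. *Ninj1*, whose product ruptures the membrane after pore formation, was higher in Trem2-/- cells in both conditions (0.48 and 0.53). *Gsdme*, which encodes another pore-forming gasdermin, was lower in Trem2-/- foamy cells (−0.31, adjusted p = 0.0461, edgeR). Among regulators of NLRP3, *Txnip* (0.69 and 0.51) was higher and the ATP receptor *P2rx7* (−0.29 and −0.32) lower in both conditions, and in non-foamy cells *Nek7* (0.20) was higher and the channel gene *Panx1* (−0.56) lower. *Serpinb1a*, an inhibitor of serine proteases, fell with cholesterol in WT cells (−0.47, adjusted p = 0.000290, edgeR) and was lower in Trem2-/- cells in both conditions (−0.63 and −0.24).

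**Figure D4:**
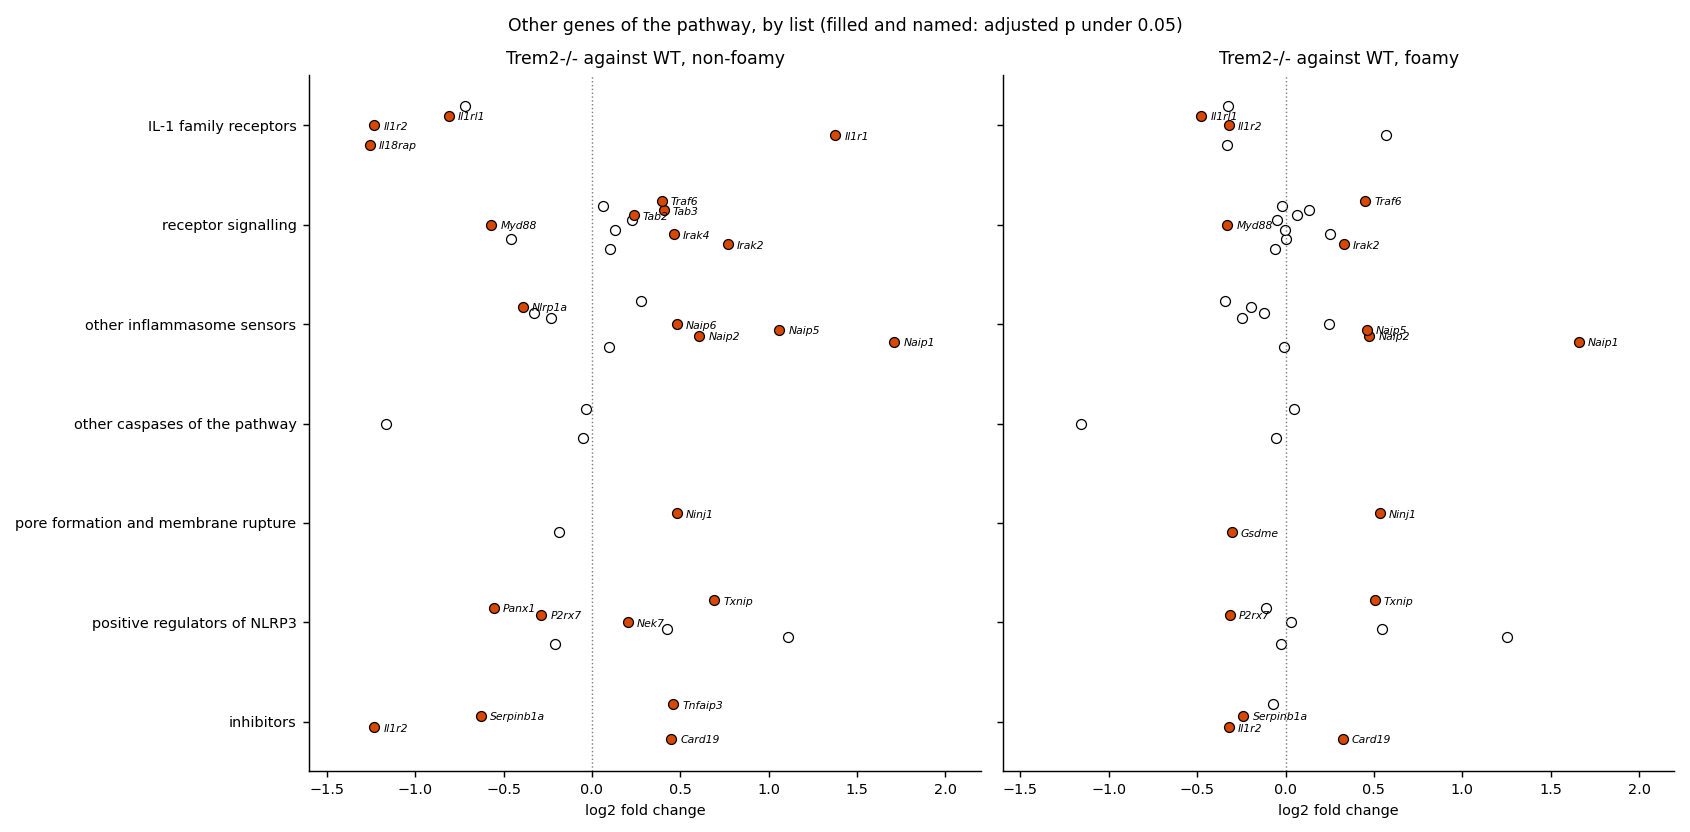
Log2 fold change between genotypes (horizontal axis, log2 scale, Trem2-/- against WT) of the 40 tested pathway genes by list, in non-foamy and foamy cells, with filled, named symbols for called genes and *Il1r2* shown in both lists that hold it. Receptors are mostly to the left, including *Il1r2* (−1.23 in non-foamy cells), and *Naip1* lies farthest to the right (1.71).

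Across the 15 libraries, the genes whose log2 level was most correlated with that of a member were found among 11708 genes that averaged 1 CPM or more. For *Il1a* they included *Gpr137b-ps* and *Slc40a1* (Pearson r of 0.99 each), and for *Nlrp3* they were *Etv5* (0.98), *Dhodh* (0.97) and *Grk6* (0.97). For *Il1rn* the highest was *Aim2* (0.85) and for *Il1b* it was *Aqp11* (0.84). Neither of these 2 members was called in any comparison. Each r is the highest of 11708 genes, and whether it exceeds what chance gives was not tested. Among members, *Il1a* and *Nlrp3* had an r of −0.93 and *Nlrp3* and *Casp1* one of −0.92, and these 2 values follow the division of the libraries by genotype. The genes given for *Il1a* and *Nlrp3* also differed in mean level between the genotypes. *Etv5*, for example, had means of 19.3 and 17.1 CPM in WT non-foamy and foamy cells, against 4.90 and 5.33 in Trem2-/- cells. These correlations are a description over libraries that share groups and scaling.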

How the data were processed

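Bulk RNA-seq of BV2 cells was analysed in 15 libraries and 4 groups, taken from the labels. The authors deposited raw read counts per gene, not normalized, made in the CHURP pipeline (Trimmomatic, HISAT2 on GRCm38, featureCounts). The strand setting is not given in the sources used here. Low counts were mostly even (81.4% of values of 1 to 20), so both reads of a pair appear to have been counted.

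Genes were kept by filterByExpr (minimum count 10), which left 14237 genes with 99.97% of counts, and were fitted together with 1 mean per group in edgeR 4.0.16 (R 4.3.3), with TMM factors of 0.918 to 1.11. The s.e. is the log2 fold change divided by the square root of F. The biological coefficient of variation was 10.2%. Replicates differed by more than counting noise (chi-square per gene 5.95 to 45.4). Exon lengths and overlaps came from GENCODE M21 on GRCm38, which matched 99.5% of gene IDs, and promoter windows from RefSeq. The fit was tested on simulated data with changes placed in the Trem2-/- foamy group only. In the genotype comparison of foamy cells it recovered 68% of changes of 1 on the log2 scale and 56% of smaller ones. Recovery was higher among genes with high mean counts. Of the calls, 6.06% were genes left unchanged.

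The genes, the lists, the motifs and the alternatives were chosen with earlier results of these data known, and the report names every member, pathway genes from the lists (mostly called ones), and genes among the 3 most correlated with *Il1a* and *Nlrp3* and the most correlated with *Il1rn* and *Il1b*. Some genes that these rules take in are not reported here. Alternatives were DESeq2 1.42.0, RLE factors, total counts, no filter, a minimum of 10 counts in each library, a fit of only the groups compared, the replicate number as a block, a log2 fold change of at least 1, and each library left out in turn. Halved counts and leaving out the libraries that stood apart (WT non-foamy 3 and Trem2-/- foamy 4) were added after seeing the data.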

Additional observations from a re-analysis of the deposited data

Results flagged for a closer look

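The response of *Il1a* to cholesterol differed between genotypes. The difference of the responses was −1.52 on the log2 scale (adjusted p = 0.00113, edgeR), from 1.04 in WT and −0.48 in Trem2-/- cells, of which only the WT response was called. All 4 WT foamy libraries were above all 4 WT non-foamy libraries, and all 4 Trem2-/- foamy libraries were below all 3 Trem2-/- non-foamy libraries.

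*Pycard* in Trem2-/- foamy cells was at 0.0636 CPM (2 reads) in library 2 and at 0 reads in the other 3. Any group with reads in a single library meets the criterion for a library far from the others, and 2 reads lie under the limit of 3 that a count of 0 allows, so this library is not shown to differ. Of 28 sets of a gene and a group of 4 libraries examined, this was the only 1 to meet it, and chance gives about 1 in 20. Trem2-/- non-foamy library 3, in a group of 3 that was not examined in this way, had 8 reads.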

How the results depend on the processing

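The higher *Il1a* and *Casp1* and lower *Nlrp3* in Trem2-/- cells, in both conditions, and the *Il1a* difference of the responses were called under each alternative run, except that with a minimum log2 fold change of 1 *Casp1* was not called in either condition and *Nlrp3* was not called in foamy cells. *Il1a* ranged from 3.23 to 3.54 in non-foamy and from 1.76 to 1.96 in foamy cells, *Nlrp3* from −1.21 to −0.99 and from −0.96 to −0.76, and *Casp1* from 0.32 to 0.58 and from 0.28 to 0.45. The *Il1a* response in WT was not called where the WT libraries were fitted alone and was called under the others. *Il1b*, *Il18bp* and *Pycard* rest on few reads (28 to 70, 33 to 136 and 0 to 8 per library). So does *Il1a* in WT cells (23 to 49 reads in non-foamy and 65 to 78 in foamy libraries). With counts halved the number of members called was the same in each comparison. No cause of the changes below was tested.

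The number of genes called for the WT response was 399, and was 881 with DESeq2, 607 without the filter, 144 with only the groups compared, 693 without the libraries that stood apart and 146 to 526 when 1 library was left out. For the Trem2-/- response it was 20, and was 56 with DESeq2, 61 without the filter and 10 to 18 with 1 library left out. For the difference of the responses it was 518, and was 985 with DESeq2, 904 without the libraries that stood apart and 201 to 661 with 1 library left out. A minimum log2 fold change of 1 left 15, 1, 880, 409 and 45 genes in the WT response, the Trem2-/- response, the genotype comparison of non-foamy cells, that of foamy cells and the difference of the responses. It left 2 members in non-foamy and 1 in foamy cells, and 0, 5, 1 and 0 pathway genes in the WT response, non-foamy cells, foamy cells and the difference. Members called for the WT response were 0 with only the groups compared, and pathway genes were 7 with DESeq2. With 1 library left out, 3 to 5 members were called in non-foamy cells and 1 to 6 pathway genes for the difference.

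Scaling by total counts alone shifted the median log2 fold change between genotypes by −0.14 in non-foamy and −0.13 in foamy cells. The share of calls that were higher went from 48.1% to 29.4% in non-foamy cells, from 47.4% to 23.3% in foamy cells, from 59.4% to 41.8% in the WT response and from 54.8% to 70.3% in the difference. *Il1rn* in foamy cells became called under it (−0.26, adjusted p = 0.0449).

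Same-numbered libraries did not deviate together (median r of −0.0097, 1 of 21 pairs over 0.1, and 4 of 15 libraries closest to their own number). With the replicate number as a block, 294 genes were called for the difference, the member calls were as before, and 2 uncalled values changed sign, *Il18* in non-foamy cells (0.040) and *Il1b* in the difference (−0.025).

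Other changes of sign were of uncalled values near 0. Under total counts the Trem2-/- response was 0.0042 for *Casp1* and 0.0046 for *Gsdmd*. Without the libraries that stood apart, *Il18* was −0.064 in the Trem2-/- response and 0.098 in non-foamy cells, and *Il1b* was −0.070 in the difference. With 1 library left out, WT responses ranged from −0.035 to 0.14 for *Il1b*, −0.058 to 0.15 for *Il1rn*, −0.17 to 0.0077 for *Casp4* and −0.052 to 0.0014 for *Gsdmd*. Trem2-/- responses ranged from −0.12 to 0.37 for *Il1b*, −0.065 to 0.26 for *Il18*, −0.21 to 0.27 for *Il18bp*, −0.12 to 0.060 for *Casp1* and −0.025 to 0.024 for *Gsdmd*. *Il18* ranged from −0.12 to 0.097 in non-foamy cells and *Gsdmd* from −0.059 to 0.0074 in foamy cells. Differences of the responses ranged from −0.17 to 0.32 for *Il1b*, −0.17 to 0.012 for *Casp1*, −0.20 to 0.024 for *Casp4* and −0.011 to 0.050 for *Gsdmd*.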

Other observations

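Of the 4 tested genes of the inhibitor list, 3 were called for a difference of the responses, against 3.64% of all tested genes. The difference was positive for *Il1r2* and *Serpinb1a* and negative for *Tnfaip3*. The list was chosen with earlier results known, and with 1 library left out 1 to 6 pathway genes were called for this difference. The difference of the responses of *Serpinb1a* was 0.39 (adjusted p = 0.0331, edgeR), from −0.47 in WT and −0.082 in Trem2-/- cells, of which only the WT response was called. *Tnfaip3*, which encodes the A20 protein that restrains NF-κB signalling, was higher in Trem2-/- than in WT non-foamy cells (log2 fold change 0.46, adjusted p = 0.00108, edgeR), at means of 18.1 and 13.2 CPM, and its difference of the responses was −0.53 (adjusted p = 0.0416). *Card19* was higher in Trem2-/- cells in both conditions (0.45 and 0.32).

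Trem2-/- non-foamy library 3, which held 8 of the 10 *Pycard* reads of the series, was the lowest of its group for 5 of the 9 tested members. *Trim72*, the neighbour of *Pycard*, had 6 reads in that library and 0 in the other 14 and was named after its values were seen.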
